A study of Mus musculus with 24 samples.

Results

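Nupr1, the metallothionein genes Mt1 and Mt2, their zinc-sensing activator Mtf1, the zinc exporter gene Slc30a1 and the thioredoxin inhibitor gene Txnip were followed through mouse blood stem and progenitor cells. These 6 genes were taken by name from a table of 56748 genes. They had been picked on measured values, because Nupr1 was reported as high only in wild type stem cells and because Mt1 differed between genotypes in stem cells. Those values are therefore given here as a description, with no test. RNA was sequenced from 24 libraries in 8 groups of 3, formed by genotype, wild type (WT) or knockout (KO), and by sorted population, which was either haematopoietic stem cells (HSC) or 1 of the multipotent progenitor (MPP) populations labelled MPP1, MPP2 and MPP4. All animals, WT included, had been given tamoxifen, a drug commonly used to switch on an inducible Cre recombinase. The labels give bone marrow as the origin of the sorted cells, although their tissue field reads blood. They state neither the deleted gene, the driver of any Cre, the age of the mice, nor whether replicate libraries are from different mice, so every p-value here is set against the spread among libraries alone, and that spread may be technical.

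Nupr1 is a small chromatin protein that is switched on by many kinds of cell stress, among them the integrated stress response, in which phosphorylated eIF2-alpha lets ATF4 be translated. Metallothioneins are cysteine-rich proteins that hold zinc and copper. Free zinc activates MTF1, which binds metal response elements and raises metallothionein genes and Slc30a1, whose product ZnT1 pumps zinc out of the cell. TXNIP is an alpha-arrestin that binds thioredoxin and limits glucose uptake, and it is known for its part in keeping blood stem cells quiescent.

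Library totals ran from 2540511 to 3807003 counts. No replicate was a copy of another, since over the 24 pairs of replicates the chi-square per degree of freedom was 4.19 to 9.72. Reads spread over gene spans without regard to expression, estimated from 1491 olfactory and vomeronasal receptor genes, came to 22.5 ± 1.83% of the counts in WT HSC and 5.54 ± 0.219% in KO-labelled HSC (SD, n = 3). This share was also higher in WT than in KO-labelled libraries of MPP1 (24.1 against 13.8%), MPP2 (11.5 against 9.35%) and MPP4 (30.6 against 18.4%). The summed level of 10 HSC markers was 5662 to 5692 CPM (counts scaled to a common library total) in WT HSC and 8709 to 9015 CPM in KO-labelled HSC, with Hoxb5 at 0 throughout. It was 5542 to 5667 CPM in WT MPP1 and 6706 to 6900 CPM in KO-labelled MPP1. The sum thus did not separate WT HSC from WT MPP1. The labels of MPP2 and MPP4 went against their markers. Lymphoid markers that define MPP4, such as Flt3 and Dntt, summed to 2350 to 2470 CPM in WT libraries labelled MPP2 and to 207 to 229 CPM in WT libraries labelled MPP4. The markers of MPP2, which are megakaryocyte and erythroid genes and Cd48, summed to 92.2 to 101.9 and 208 to 244 CPM. These groups are therefore called MPP2-labelled and MPP4-labelled. Whole-gene counts of Ddx6, a helicase of P-bodies, were 154 to 319 in WT and 194 to 308 in the other libraries, so the genotype could not be checked there and these libraries are called KO-labelled. The median log2 fold change of all 21964 genes tested, KO-labelled minus WT, was -0.31 for HSC, -0.10 for MPP1, -0.07 for MPP2-labelled cells and -0.08 for MPP4-labelled cells, and -0.46, -0.20, -0.10 and -0.24 with median-of-ratios size factors.

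The promoters of 3 of the genes are shown because they differ in the 2 regulatory words that their biology turns on. The windows come from RefSeq on build GRCm38.p6, in which all 6 genes were matched, and each is printed 5′ to 3′ on the strand of its gene. Nupr1 lies at chr7:126625421-126625720 on the minus strand, Mt1 at chr8:94178839-94179138 and Slc30a1 at chr1:191906531-191906830, both on the plus strand. Capitals mark matches, on either strand, to the C/EBP-ATF response element TGATGNAAT in Nupr1 and to the metal response core (TGCACNC or TGCGCNC) in Mt1 and Slc30a1. No match overlaps another.
Nupr1: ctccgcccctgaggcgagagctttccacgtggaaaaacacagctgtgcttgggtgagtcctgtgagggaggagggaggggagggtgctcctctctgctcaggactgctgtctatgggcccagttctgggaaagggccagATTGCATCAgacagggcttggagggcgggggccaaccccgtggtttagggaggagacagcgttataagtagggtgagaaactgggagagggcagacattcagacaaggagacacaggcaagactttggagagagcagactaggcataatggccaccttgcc
Mt1: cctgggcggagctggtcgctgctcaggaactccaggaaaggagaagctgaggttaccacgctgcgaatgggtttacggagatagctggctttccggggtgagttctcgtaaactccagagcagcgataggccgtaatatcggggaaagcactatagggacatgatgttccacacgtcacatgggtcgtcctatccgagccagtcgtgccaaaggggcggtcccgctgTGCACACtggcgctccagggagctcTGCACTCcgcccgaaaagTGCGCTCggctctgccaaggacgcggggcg
Slc30a1: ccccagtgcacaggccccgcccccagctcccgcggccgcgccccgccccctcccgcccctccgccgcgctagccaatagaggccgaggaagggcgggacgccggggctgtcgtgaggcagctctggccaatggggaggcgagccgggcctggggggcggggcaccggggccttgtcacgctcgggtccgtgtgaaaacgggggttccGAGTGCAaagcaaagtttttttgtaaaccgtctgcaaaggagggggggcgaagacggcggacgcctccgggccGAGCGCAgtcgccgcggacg
The Nupr1 word lies on the opposite strand at position -111 from the start site, and 0.965% of 32851 promoters of the same length hold such a word. Within its window Mt1 holds 3 metal response cores, at -23, 3 and 21, and Slc30a1 holds 2, at -43 and 31. Mt2 holds 4, Txnip 1, and Mtf1 and Nupr1 hold 0. Positions are counted from the RefSeq start that set each window. Whether the sorted cells use that start was not tested, and cores outside the window are not counted. Of all promoters, 25.7% hold 1 core or more, 7.11% hold 2 or more and 1.97% hold 3 or more. A match describes the letters of the window and is no evidence of a bound factor.

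Nupr1 (ENSMUSG00000030717.10) was highest in the libraries labelled HSC in both genotypes. Its counts were 592, 559 and 596 in the 3 WT HSC libraries and 761, 532 and 610 in KO-labelled HSC. On library totals scaled by the trimmed mean of M-values (TMM), these were 161 ± 11.3 and 213 ± 46.0 CPM (SD, n = 3 each). The description of Nupr1 as high only in WT HSC was thus not borne out, since KO-labelled HSC were as high or higher. By CPM the HSC groups did not overlap (148 to 170 against 179.7 to 265 CPM), as was true of 53.9% of genes tested, but with median-of-ratios size factors they did (152 to 175 against 166 to 246 CPM). The log2 difference, KO-labelled minus WT, was 0.40 by TMM, 0.25 by median-of-ratios size factors and -0.14 after background subtraction, so its direction depended on the scaling.

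In the progenitors Nupr1 followed the order MPP4-labelled, MPP1, MPP2-labelled in both genotypes. MPP4-labelled cells held 129, 130 and 69 counts in WT and 129, 81 and 101 in KO-labelled libraries, or 32.6 ± 7.93 and 30.5 ± 5.88 CPM. MPP1 held 35, 59 and 34 counts in WT (12.2 ± 4.01 CPM) and 22, 48 and 30 in KO-labelled libraries (9.97 ± 3.38 CPM). MPP2-labelled cells were lowest, with 20, 11 and 1 counts in WT (3.24 ± 2.96 CPM) and 2, 1 and 8 in KO-labelled libraries (1.37 ± 1.43 CPM). Within each progenitor population the WT and KO-labelled groups overlapped, and no population overlapped the next one. The mean in HSC was 4.94 times that in MPP4-labelled cells in WT and 6.97 times in KO-labelled libraries, 13.2 and 21.3 times that in MPP1, and 49.6 and 156 times that in MPP2-labelled cells. Background accounted for an estimated 0.762% of the Nupr1 counts in WT HSC and 0.179% in KO-labelled HSC, but for 22.8 and 47.3% in MPP2-labelled cells, so the lowest levels are the least certain. Because the libraries are bulk samples, fewer cells of a type and less RNA per cell cannot be told apart.

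**Figure D1:**
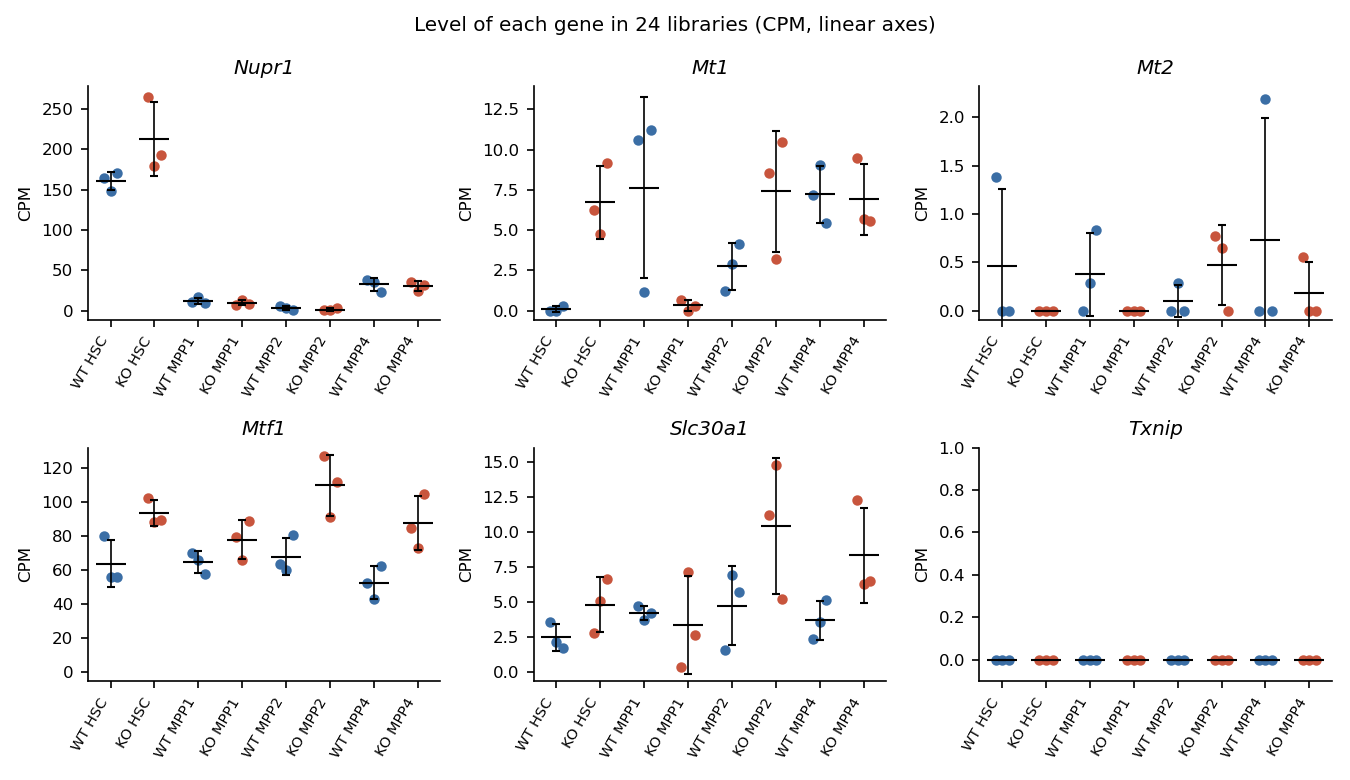
Level of the 6 genes in each library, as CPM on TMM-scaled totals (linear axes that differ between panels), by group; blue points are WT and red points KO-labelled libraries, horizontal bars are means and whiskers SD of 3 libraries. Nupr1 is high in the HSC of both genotypes, Mt1 is near 0 in WT HSC and KO-labelled MPP1, and Txnip is at 0 in all 24 libraries.

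Mt1 (ENSMUSG00000031765.9) had few counts, and in 2 of the 8 groups it was close to absent. WT HSC held 0, 0 and 1 counts, whereas KO-labelled HSC held 18, 14 and 29. In MPP1 the pattern was the opposite, with 36, 4 and 40 counts in WT and 2, 0 and 1 in KO-labelled libraries. MPP2-labelled cells held 4, 10 and 13 counts in WT and 22, 10 and 28 in KO-labelled libraries, and MPP4-labelled cells 24, 33 and 16 and 34, 19 and 18. The group means were 0.0952 ± 0.165 (WT) and 6.72 ± 2.25 CPM (KO-labelled) in HSC, 7.64 ± 5.64 and 0.320 ± 0.335 CPM in MPP1, 2.76 ± 1.45 and 7.42 ± 3.76 CPM in MPP2-labelled cells, and 7.22 ± 1.78 and 6.91 ± 2.22 CPM in MPP4-labelled cells (SD, n = 3). Ordered by mean, the 5 highest groups (WT MPP1, KO-labelled MPP2-labelled, WT and KO-labelled MPP4-labelled and KO-labelled HSC) each overlapped the next, WT MPP2-labelled cells came next without overlapping KO-labelled HSC, and KO-labelled MPP1 and WT HSC overlapped at the bottom.

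In HSC the summed counts were 61 in KO-labelled and 1 in WT libraries, a ratio per total count of 58.8 with an exact 95% interval of 10.2 to 2358, which covers counting error only. This contrast chose the gene and was not tested. In MPP1, Mt1 fell in KO-labelled cells (fitted log2 difference -4.47 ± 0.99, SE), with an adjusted p of 0.00111 (edgeR quasi-likelihood F test, Benjamini-Hochberg over all genes tested). The stated reason for choosing Mt1 was its HSC contrast, but earlier results of these data were known when it was chosen. The MPP1 test may therefore not be independent of the choice. Summed counts were 80 in WT and 3 in KO-labelled MPP1, a ratio per total count of 28.1 (exact 95% interval 9.28 to 139). All 3 KO-labelled libraries lay below all 3 WT libraries (35.1% of all genes had no overlap there), although WT replicate 2, at 4 counts, was close to them. Mt1 was the only gene of 3 tested (Mt1, Mtf1 and Slc30a1) that passed in MPP1, where 13.6% of all genes passed. Without KO-labelled MPP1 replicate 1 the fitted log2 difference was -5.39 (adjusted p = 0.00271), and over 12 alternatives the adjusted p ran from 0.000203 to 0.0184. A further alternative, a fit of the MPP1 libraries alone, gave no value because Mt1 did not pass its filter on low counts.

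The other progenitors showed no such difference. In MPP2-labelled cells the Mt1 log2 difference was 1.41 ± 0.80 (adjusted p = 0.317), with 2 SE spanning -0.18 to 3.00. In MPP4-labelled cells it was -0.06 ± 0.76 (adjusted p = 0.967), spanning -1.58 to 1.45. The genotype difference of Mt1 itself differed among MPP1, MPP2-labelled and MPP4-labelled cells (interaction, adjusted p = 0.00487), a test that 6.15% of genes passed and that Mt1 missed after background subtraction (adjusted p = 0.0692). Mt1 also differed among the 3 KO-labelled progenitor groups (adjusted p = 0.00196, with 21.2% of genes passing). Among the WT progenitor groups the adjusted p was 0.314. There 0 of the 3 genes passed in edgeR, 0 at an unadjusted p below 0.05 and 0 in DESeq2, against 25.1% of all genes in edgeR.

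The 7 markers of MPP2 were megakaryocyte and erythroid genes and, beside them, Cd48. These markers moved in the same direction as Mt1 in MPP1 and, by their sum, in HSC. In MPP2-labelled cells their sum moved the other way, but the means of Gata1, Itga2b and Epor did not fall there and 0 of 6 tested were called. Of 6 tested, 4 were lower in KO-labelled than in WT MPP1 (Gata1, Epor, Itga2b and Cd48), against 4.9% of all genes, and 2 of them (Gata1 and Epor) remained after background subtraction. The summed level of all 7 was 94.1 to 119 CPM in WT MPP1 and 15.45 to 28.75 CPM in KO-labelled MPP1, with Gp1bb at 0 in both. In HSC the sum went the other way, from 61.5 to 71.6 CPM in WT to 93.0 to 116 CPM in KO-labelled libraries. There 2 were called higher (Gata1 and Epor) and 1 lower (Cd48), against 18.3 and 24.8% of all genes. After background subtraction only the fall of Cd48 remained. In MPP2-labelled cells the sum was 92.2 to 101.9 CPM in WT and 59.0 to 80.6 CPM in KO-labelled libraries, while the Mt1 mean was higher in the KO-labelled ones. Gata1 and Epor, the erythroid transcription factor and the erythropoietin receptor, were picked from that list with their values in view. Levels of single genes are on TMM-scaled totals, whereas the marker sums are on unscaled library totals. Gata1 averaged 7.06 CPM in WT HSC, 35.6 CPM in KO-labelled HSC, 23.2 CPM in WT MPP1 and 2.92 CPM in KO-labelled MPP1. Epor averaged 5.08, 23.4, 22.9 and 2.497 CPM in the same order. The sum of 8 myeloid markers moved in the direction of Mt1 in MPP1 and in the opposite direction in HSC. It was 183.5 to 224 CPM in WT MPP1 and 29.5 to 44.4 CPM in KO-labelled MPP1, and 57.3 to 66.8 and 24.3 to 45.4 CPM in WT and KO-labelled HSC. Of 7 tested, 2 were called lower in MPP1 (the granule genes Mpo and Elane), against 4.9% of all genes, and both remained after background subtraction. In HSC 4 were called lower, against 24.8% of all genes, and only Mpo remained. The part of these lineages in the Mt1 values was not tested.

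Mtf1 (ENSMUSG00000028890.14), the zinc-sensing activator of Mt1 and Slc30a1, was well measured in all groups. MPP2-labelled cells held 203, 208 and 252 counts in WT and 327, 283 and 298 in KO-labelled libraries, or 67.9 ± 10.9 and 110 ± 17.9 CPM (SD, n = 3). MPP4-labelled cells held 175, 158 and 183 counts in WT and 305, 244 and 338 in KO-labelled libraries, or 52.7 ± 9.64 and 87.5 ± 15.9 CPM. In both populations every KO-labelled library lay above every WT library, as did or lay below 25.2 and 31.7% of all genes tested. Mtf1 rose by 0.69 ± 0.19 in MPP2-labelled cells (log2, SE; edgeR adjusted p = 0.0161) and by 0.74 ± 0.19 in MPP4-labelled cells (adjusted p = 0.00555). It was the only gene of the 3 tested that passed in either, where 7.9 and 17.9% of all genes passed. These are ratios of mean CPM of 1.62 and 1.66.

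The Mtf1 calls rested on narrow margins. Background made up an estimated 6.88% of its counts in WT and 3.59% in KO-labelled MPP2-labelled cells, and 18.6 and 7.42% in MPP4-labelled cells. After subtraction the log2 differences were 0.598 (adjusted p = 0.113) and 0.543 (adjusted p = 0.122). The MPP2-labelled call was also lost without WT replicate 1 (adjusted p = 0.083), WT replicate 2 (0.104) or KO-labelled replicate 1 (0.105), and the MPP4-labelled call without WT replicate 2 (0.0517) or KO-labelled replicate 3 (0.0526). In MPP1, Mtf1 held 239, 232 and 207 counts in WT and 237, 230 and 303 in KO-labelled libraries, a log2 difference of 0.27 ± 0.19 (adjusted p = 0.412, 2 SE spanning -0.12 to 0.65). In HSC it held 288, 211 and 195 counts in WT and 294, 262 and 283 in KO-labelled libraries, or 63.8 ± 13.8 and 93.5 ± 7.80 CPM, a difference of 0.55 on the log2 scale that was not tested (43.1% of all genes passed in HSC). A difference between populations in the genotype effect was not found (interaction, adjusted p = 0.514).

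Slc30a1 (ENSMUSG00000037434.8), the zinc exporter gene that MTF1 activates, had low counts and passed no test. MPP4-labelled cells held 8, 13 and 15 counts in WT and 44, 21 and 21 in KO-labelled libraries (3.69 ± 1.37 against 8.35 ± 3.39 CPM). These did not overlap, as was true of 31.7% of all genes tested there. MPP2-labelled cells held 5, 24 and 18 against 29, 46 and 14 counts, which overlapped (4.74 ± 2.81 against 10.4 ± 4.84 CPM). The log2 differences of 1.18 ± 0.75 (adjusted p = 0.293) and 1.13 ± 0.74 (adjusted p = 0.408) have 2-SE spans of -0.32 to 2.67 and -0.35 to 2.61, so neither no change nor a several-fold rise lies outside them. In MPP1 the counts were 16, 13 and 15 in WT and 1, 25 and 9 in KO-labelled libraries (log2 difference -0.30 ± 0.76, adjusted p = 0.856), and in HSC 13, 8 and 6 and 8, 15 and 21. The KO-labelled MPP1 libraries ran from 0.334 to 7.18 CPM and the KO-labelled MPP2-labelled libraries from 5.25 to 14.8 CPM. Other genes cover 11.7% of the span of Slc30a1, on the opposite strand, and background made up an estimated 36.2% of its counts in WT MPP4-labelled and 42.0% in WT HSC.

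**Figure D2:**
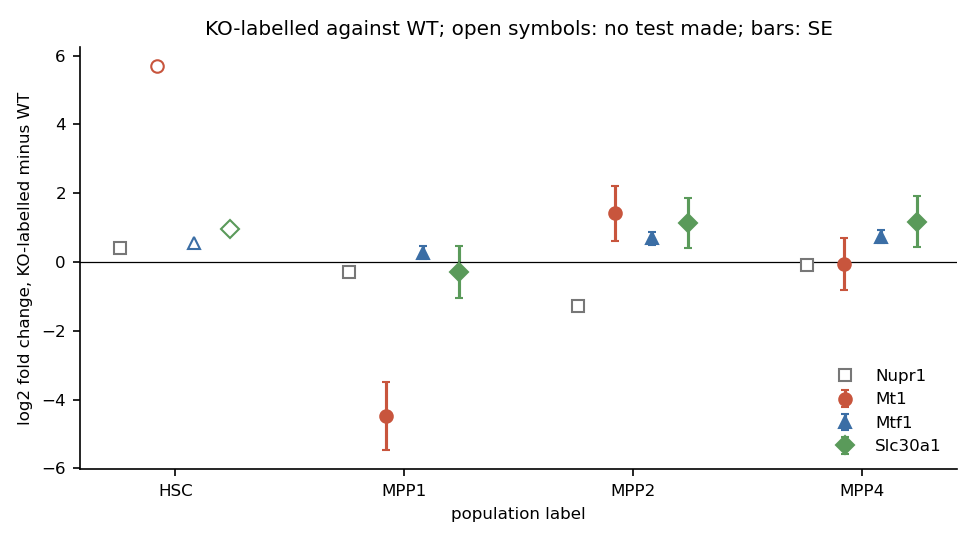
Log2 fold change, KO-labelled minus WT, of Nupr1, Mt1, Mtf1 and Slc30a1 by population label; filled symbols carry their SE and open symbols were not tested. Mt1 lies at 5.69 in HSC (fitted, untested) and at -4.47 in MPP1, while the tested Mtf1 values lie between 0.27 and 0.74.

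Mt2 (ENSMUSG00000031762.8), the neighbour and partner of Mt1, had 24 counts in all, in 8 of 24 libraries, and did not pass the filter on low counts. The highest were 8 counts in WT MPP4-labelled replicate 2 and 5 counts in WT HSC replicate 1. It was at 0 in all 6 KO-labelled HSC and MPP1 libraries, but 0 was also the count in most WT libraries. The antisense gene Gm45774 covers 82.8% of its span and leaves 156 bases, and Gm45774 itself had 20 counts. Txnip (ENSMUSG00000038393.15) was at 0 in all 24 libraries and also failed the filter. A count of 0 allows up to 0.788 to 1.18 CPM in a library and 0.0380 CPM over all, for counting error only. Its span is wholly covered by Gm15441 on the opposite strand, which had 0 to 16 counts per library and 115 in all. Thus 4 of the 6 genes passed the filter and no statement on Txnip or Mt2 expression can be drawn from the table.

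The 0 of Txnip was shared with most genes in its position. Of 1336 protein-coding genes whose span is wholly covered by other annotated genes, 1160 (86.8%) were at 0 in all 24 libraries, against 237 of 11728 (2.02%) genes that no other gene covers. B2m, Hif1a and Glo1, which are wholly covered, and Sumo3, at 99.2%, were also at 0, although B2m encodes the light chain of MHC class I that nearly all cells carry. The choice of these 4 genes was made with their values in view. In the bin of coverage that holds Mt2, 3.18% of genes were at 0. Nupr1 and Mt1 are not covered by any other gene, and Mtf1 is covered over 1.76% of its span. The counting program and its treatment of overlaps are not given in the sources used here.

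**Figure D3:**
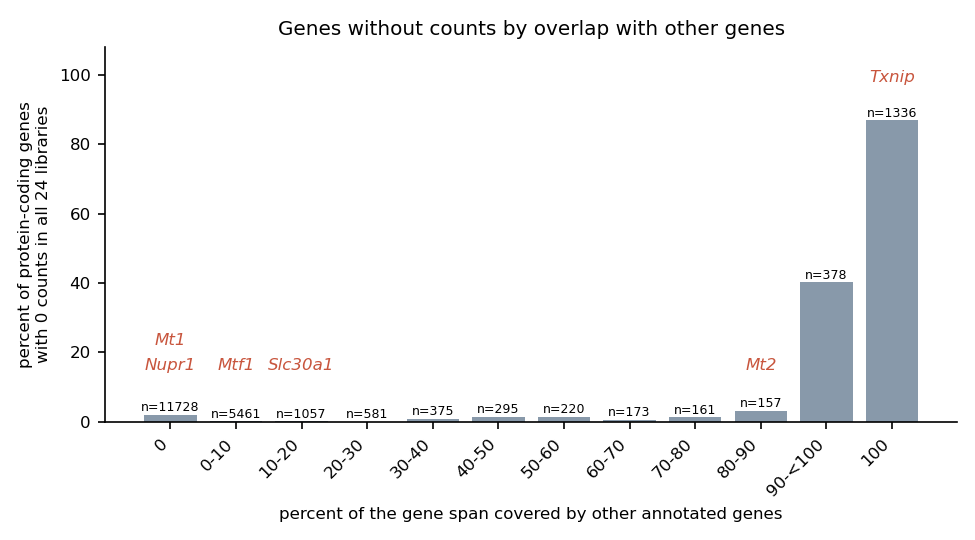
Percent of protein-coding genes with 0 counts in all 24 libraries (vertical axis) by the percent of the gene span that other annotated genes cover (horizontal axis), with the number of genes above each bar and the bin of the 6 genes in red. The share is 2.02% without overlap and 86.8% under full coverage, the bin of Txnip.

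The genes whose log2 CPM over the 24 libraries was most like that of Nupr1, among 12597 compared, were Zfpm1 (Pearson r = 0.937), Csgalnact1 (0.928), Plxnc1 (0.915), Vwf (0.914) and Shank3 (0.898). Zfpm1 encodes FOG1, the partner of GATA factors, and Vwf encodes von Willebrand factor, which marks platelet-biased stem cells. Vwf averaged 163.5 CPM in WT HSC and 439 CPM in KO-labelled HSC, against 111 and 54.2 CPM in MPP4-labelled cells and 27.1 and 22.1 CPM in MPP2-labelled cells. Each of the 5 was highest in HSC and lowest in MPP2-labelled cells, over a narrower range than Nupr1. For Mt1 the 5 most alike among 12598 genes were Steap3 (0.781), Lgals9 (0.777), Cks2 (0.777), Fam126a (0.774) and Asap1 (0.769). Steap3, the endosomal ferrireductase of erythroid iron uptake, averaged 36.6 CPM in WT HSC, 77.7 CPM in KO-labelled HSC, 129.5 CPM in WT MPP1 and 48.5 CPM in KO-labelled MPP1. The points share their libraries and 8 group means, so these values describe likeness and no p is given. Txnip could not be compared.

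**Figure D4:**
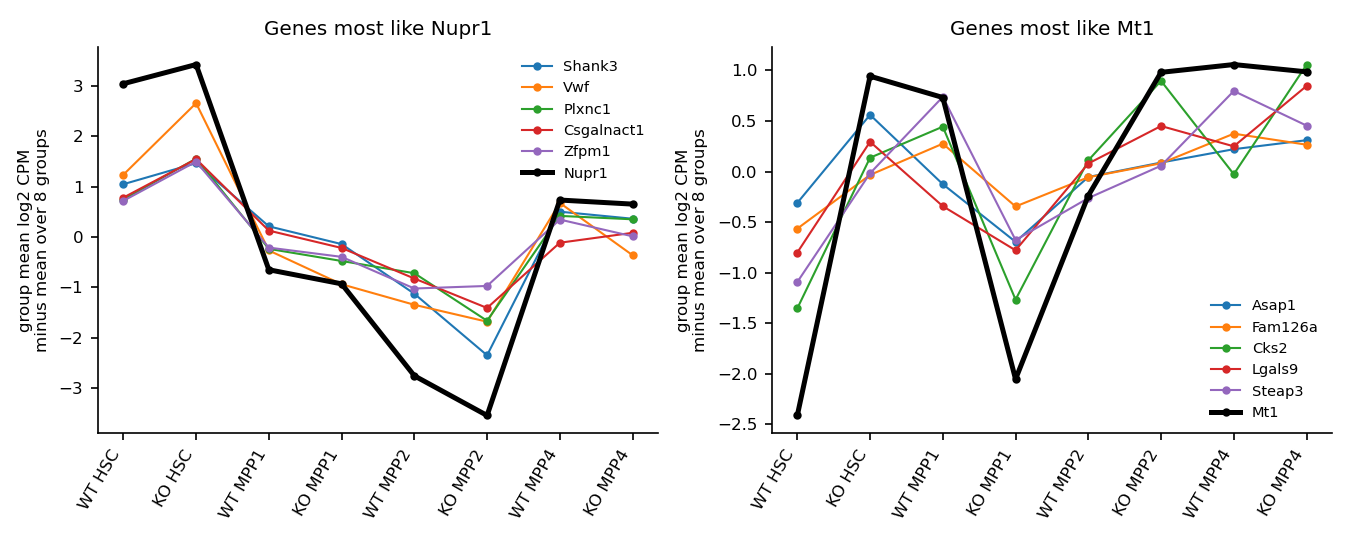
Group mean log2 CPM minus the mean over the 8 groups, for Nupr1 (left, black) and Mt1 (right, black) with the 5 genes most like each (coloured lines). Nupr1 and its 5 genes are highest in HSC of both genotypes, and Mt1 and its 5 genes are lower in WT than in KO-labelled HSC and higher in WT than in KO-labelled MPP1.

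Around these genes, 7 lists of related genes were counted in the same fits. For scale, 8.71% of all genes tested were called higher and 4.9% lower in KO-labelled MPP1, 3.73 and 4.17% in MPP2-labelled cells, 11.4 and 6.47% in MPP4-labelled cells, and 18.3 and 24.8% in HSC. Of calls in MPP1 and MPP4-labelled cells, 64.0 and 63.8% were higher, but 52.2 and 44.1% with median-of-ratios size factors, so the balance of directions depends on the scaling.

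Zinc transporters were measured by 21 genes. In MPP1, 1 rose and 0 fell; in MPP2-labelled cells, 0 rose and 2 fell; in MPP4-labelled cells 5 rose and 2 fell, and in HSC also 5 and 2. Slc39a6, the importer ZIP6, rose in 3 of these populations. In MPP1 it went from 45.5 ± 5.45 to 120 ± 2.72 CPM (log2 1.39 ± 0.17, edgeR adjusted p = 4.92e-08), in MPP4-labelled cells from 32.7 ± 1.09 to 73.8 ± 10.7 CPM (1.18 ± 0.18, adjusted p = 2.74e-06) and in HSC from 46.2 ± 3.13 to 99.3 ± 14.1 CPM (adjusted p = 1.58e-06). Its genotype effect differed among the progenitors (interaction, adjusted p = 6.75e-05). Slc39a14, the importer ZIP14, rose in MPP4-labelled cells from 19.9 ± 7.14 to 46.7 ± 11.8 CPM (adjusted p = 0.00994). Slc39a11 fell by 0.45 ± 0.09 in MPP2-labelled cells (log2, adjusted p = 0.000643), and Slc30a8 fell there from 11.1 ± 1.55 to 1.94 ± 0.36 CPM (adjusted p = 0.0483). After background subtraction Slc39a6 remained in HSC, MPP1 and MPP4-labelled cells and Slc39a11 in MPP2-labelled cells, and these were the only zinc transporter calls shared by both fits. Slc39a14 in MPP4-labelled cells (adjusted p = 0.0503) and Slc30a8 in MPP2-labelled cells (0.194) were lost, and Slc39a11 was called lower in MPP4-labelled cells only after subtraction (0.0308).

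Genes of copper and iron handling and the other metallothioneins gave 16 tested members. In MPP1, 1 rose and 2 fell, in MPP2-labelled cells 2 rose and 1 fell, in MPP4-labelled cells 3 and 3, and in HSC 4 and 0. Atp7b, the copper-exporting ATPase, fell in MPP1 from 125 ± 20 to 21.7 ± 4.11 CPM (log2 -2.53 ± 0.31, adjusted p = 4.62e-08) and in MPP2-labelled cells from 24.7 ± 5.53 to 6.66 ± 1.56 CPM (log2 -1.88 ± 0.35, adjusted p = 0.000197). Tfrc, the transferrin receptor, fell with Mt1 in MPP1, from 34.8 ± 5.38 to 14.4 ± 4.18 CPM (adjusted p = 0.00542). Ccs, the copper chaperone of superoxide dismutase, rose in MPP1 (log2 0.88 ± 0.22, adjusted p = 0.00493) and in MPP2-labelled cells (1.03 ± 0.23, adjusted p = 0.00163). Ncoa4, which carries ferritin to autophagy, rose in MPP4-labelled cells from 60.4 ± 2.21 to 123 ± 1.96 CPM (adjusted p = 3.01e-06). After background subtraction Ccs in MPP1 was lost (log2 0.598, adjusted p = 0.208), as were all 4 calls in HSC, and the other changes named here remained.

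Partners of Nupr1 in the integrated stress response had 14 tested members, of which 3 rose and 1 fell in MPP1, 1 and 1 in MPP2-labelled, 4 and 0 in MPP4-labelled cells, and 4 and 1 in HSC. Vldlr, the very low density lipoprotein receptor, rose in MPP4-labelled cells from 15.8 ± 8.56 to 77.1 ± 19.2 CPM (log2 2.30 ± 0.29, adjusted p = 6.65e-08) and in MPP1 from 32.4 ± 5.26 to 84.2 ± 10.9 CPM (adjusted p = 0.000218). Eif2ak2 and Eif2ak4, the eIF2-alpha kinases PKR and GCN2, rose in MPP1 by 0.55 ± 0.14 and 0.50 ± 0.13 and in MPP4-labelled cells by 0.74 ± 0.15 and 0.59 ± 0.14 (log2), but all 4 of these calls were lost after background subtraction (adjusted p = 0.375, 0.321, 0.0704 and 0.0971). Atf3, a stress-induced repressor, fell in MPP2-labelled cells from 17.1 ± 1.75 to 3.74 ± 3.20 CPM (adjusted p = 0.0118) and in HSC from 26.0 ± 7.47 to 2.37 ± 2.21 CPM (adjusted p = 1.35e-05). It was also the gene that fell in MPP1 (log2 -1.75 ± 0.52, adjusted p = 0.018). After background subtraction Atf3 remained in HSC (adjusted p = 0.0236) and Vldlr in MPP4-labelled cells. Atf3 in MPP2-labelled cells (0.138) and in MPP1 (0.220) and Vldlr in MPP1 (0.0672) were lost.

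Of 22 antioxidant genes under NRF2, 3 rose and 1 fell in MPP1, 1 and 1 in MPP2-labelled, 6 and 1 in MPP4-labelled cells, and 7 and 2 in HSC. Tkt, the transketolase of the pentose phosphate pathway, rose by 0.83 ± 0.18 in MPP1 (adjusted p = 0.000603) and by 0.82 ± 0.17 in MPP4-labelled cells (adjusted p = 0.000552). Pgd, of the same pathway, rose in MPP4-labelled cells from 25.1 ± 3.37 to 62.6 ± 9.20 CPM (adjusted p = 0.000187), and Gsr, glutathione reductase, in MPP2-labelled cells from 96.4 ± 10.6 to 213 ± 34.8 CPM (adjusted p = 1.08e-05). After background subtraction the MPP1 calls fell from 4 to 0 and the MPP4-labelled calls from 7 to 1 (Pgd), and both Tkt calls were lost (adjusted p = 0.0559 and 0.0769), while Gsr in MPP2-labelled cells and Tkt in HSC remained. For the interaction, 0 of the 22 passed in edgeR, 3 at an unadjusted p below 0.05 and 1 in DESeq2, where 6.15% of all genes passed in edgeR. The median log2 difference of the list was 0.33 in MPP1, 0.46 in MPP2-labelled cells and 0.43 in MPP4-labelled cells, beside -0.10, -0.07 and -0.08 over all genes tested. Smaller shifts above all genes were seen for zinc transporters (0.24, 0.03 and -0.05), copper and iron (0.20, 0.25 and 0.07) and the integrated stress response (0.21, 0.05 and 0.27). The glucocorticoid and heat shock lists lay below all genes, as did the thioredoxin list in MPP2-labelled cells. All of these medians come from the fit without background subtraction, and list medians after subtraction are not given here.

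The thioredoxin system and the alpha-arrestins related to Txnip had 20 tested members. In MPP1, 2 rose and 0 fell, namely Mlxip (MondoA, the glucose-sensing activator of Txnip; log2 0.60 ± 0.13, adjusted p = 0.000882) and Arrdc1 (0.71 ± 0.18, adjusted p = 0.00461). In MPP4-labelled cells Arrdc1 (0.77 ± 0.18, adjusted p = 0.00195) and mitochondrial thioredoxin Txn2 (0.80 ± 0.29, adjusted p = 0.0457) rose. In MPP2-labelled cells 0 of 20 passed in edgeR, 1 at an unadjusted p below 0.05 and 0 in DESeq2. After background subtraction the MPP1 calls were lost (adjusted p = 0.214 for Mlxip and 0.239 for Arrdc1), as were those in MPP4-labelled cells (0.161 for Arrdc1 and 0.314 for Txn2).

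Glucocorticoids also induce metallothioneins, and 12 of their response genes were tested. In MPP2-labelled cells 2 rose and 0 fell, namely Klf9, from 20.5 ± 3.91 to 70.8 ± 6.46 CPM (log2 1.79 ± 0.24, adjusted p = 4.02e-07), and Fkbp5, from 116 ± 6.39 to 195 ± 20.8 CPM (adjusted p = 0.00129). In MPP1, 1 rose (Klf9, adjusted p = 0.00493) and 1 fell (Zbtb16, from 67.2 ± 10.4 to 36.7 ± 11.8 CPM, adjusted p = 0.00299), and in MPP4-labelled cells 3 rose and 0 fell. In HSC 3 rose and 2 fell, the falls being Zbtb16, from 129 ± 10.7 to 36.9 ± 16.7 CPM (adjusted p = 3.96e-09), and Sgk1, from 30.9 ± 7.84 to 5.60 ± 3.38 CPM (adjusted p = 2.74e-05), with a list median of -0.69 on the log2 scale beside -0.31 over all genes. After background subtraction both MPP2-labelled calls and the falls of Zbtb16 remained, whereas Klf9 in MPP1 (adjusted p = 0.127), Sgk1 in HSC (0.127), the 3 rises in HSC and the 3 in MPP4-labelled cells were lost. The list of heat shock and dissociation stress genes, which respond to cell handling, had 14 tested members. In HSC 4 rose and 6 fell, and in MPP1, MPP2-labelled and MPP4-labelled cells 1 rose and 6 fell. The genes that rose encode heat shock proteins or their activator, namely Hsp90aa1, Hspd1, Hspe1 and Hsf1 in HSC and Hsf1 alone in the progenitors. The genes that fell are immediate early genes, among them Egr1, Fos, Fosb, Jun and Dusp1 in all 4 populations. After background subtraction all 6 falls remained in each population, and of the rises only Hsp90aa1 in HSC did. Egr1 had log2 differences of -2.95 ± 0.19 in MPP1, -3.997 ± 0.20 in MPP2-labelled cells and -3.09 ± 0.20 in MPP4-labelled cells (adjusted p = 4.94e-16, 8.75e-20 and 7.31e-16). The part of cell handling in the values of Nupr1 and Mt1 was not tested.

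**Figure D5:**
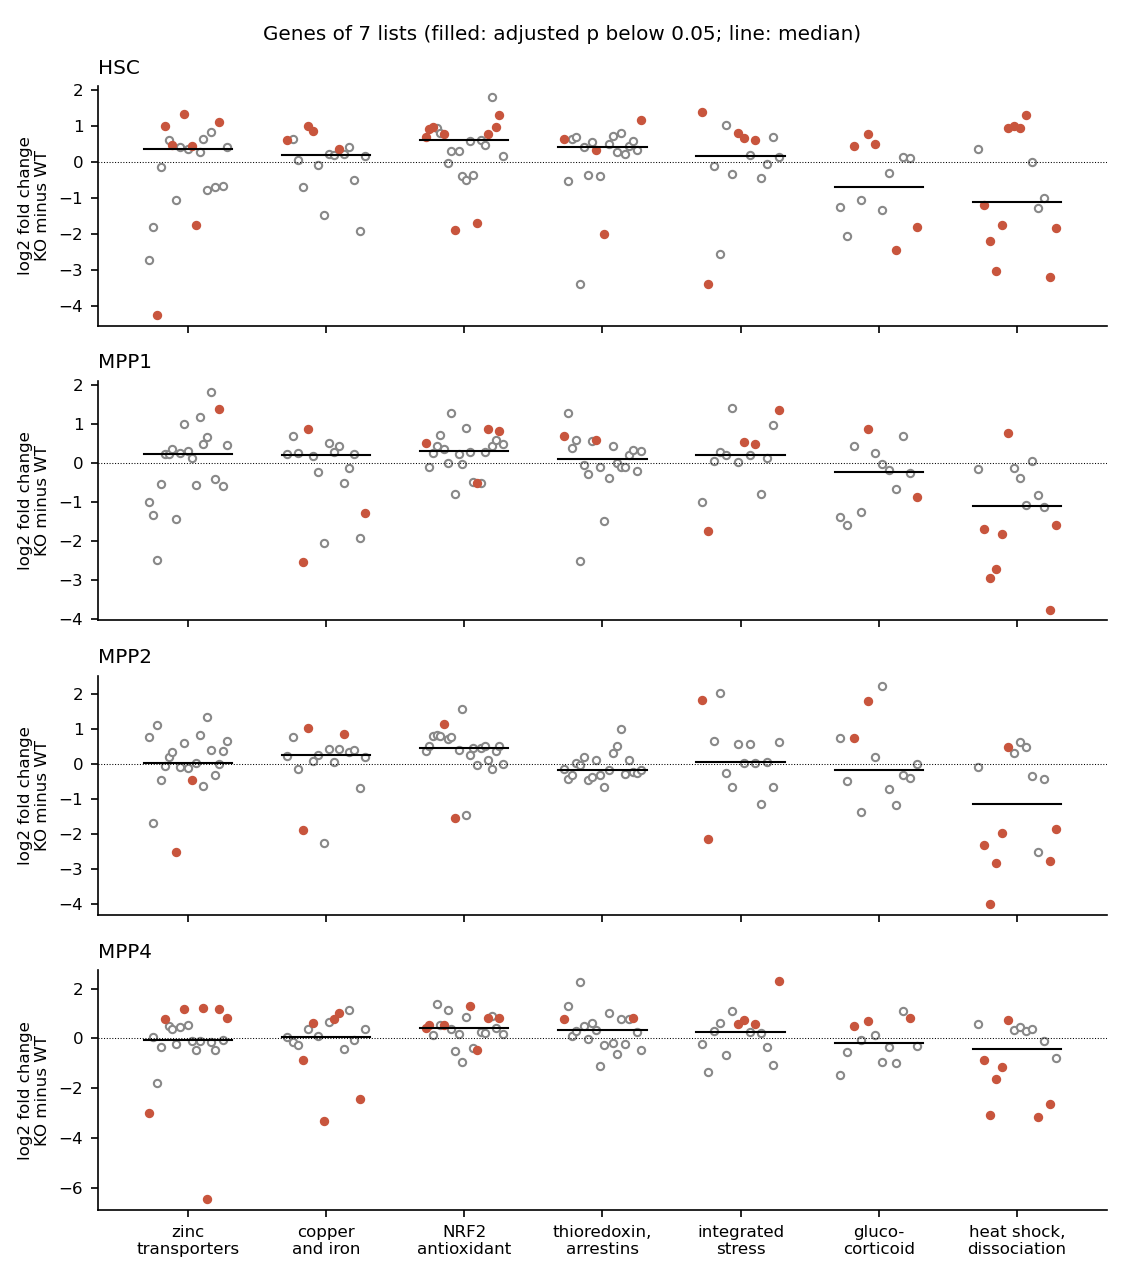
Log2 fold change, KO-labelled minus WT, of each tested gene of the 7 lists, 1 panel per population label with its own vertical range; filled points have an adjusted p below 0.05 and the line is the median of the list. The heat shock and dissociation list has 6 lower calls in every panel, and its median is -1.10 in MPP1 and -1.14 in MPP2-labelled cells.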

How the data were processed

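The authors deposited raw gene counts, as whole numbers, for all 24 libraries in 1 table with Ensembl identifiers, and 0 of its sample columns went unused. Per the submitters' processing notes, mm39 is the genome build, and SAMtools 1.12 and DESeq2 served steps that are not stated; the aligner, counting program, annotation and strand setting are not given in the sources used here. Groups and replicate numbers came from the titles. No sign of pairing by replicate number was found: of 84 same-numbered pairs, 0 had residuals correlated over 0.1. This check cannot exclude a shared mouse or batch that affects a small part of the genes.

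edgeR 4.0.16 was used to fit 8 group means over all libraries at the same time (TMM, filterByExpr, 21964 genes kept, 16 residual degrees of freedom, R 4.3.3). P-values were adjusted by Benjamini-Hochberg over all genes tested and called below 0.05. SE was taken as the size of the log2 fold change divided by the root of F. Levels of genes are CPM on TMM-scaled totals, mean ± SD of 3 libraries, and marker sums are CPM on unscaled library totals. Nupr1 was given no p anywhere, and no member was tested between genotypes in HSC. Background was the receptor gene count per kb of span times each gene's span. Spans came from a GRCm38 annotation in which 91.8% of identifiers were found; promoters came from GRCm38.p6. Named genes were the 6 members, up to 3 called genes of smallest p per list, and the 5 genes of highest r with a mean of 5 CPM or more (prior count 2). Members and lists were chosen with earlier results of these data known. Alternatives were median-of-ratios size factors, 2 other low-count filters, DESeq2 1.42.0, each library left out, a block for replicate number, a fit of just the groups compared, and background subtraction. The code was tested on simulated data.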

Additional observations from a re-analysis of the deposited data

Results flagged for a closer look

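The difference of Mt1 between KO-labelled and WT libraries was not the same across the MPP1, MPP2-labelled and MPP4-labelled populations, by a test of the difference itself (edgeR interaction over all genes tested, adjusted p = 0.00487). The log2 values were -4.47 ± 0.99 in MPP1, 1.41 ± 0.80 in MPP2-labelled cells and -0.06 ± 0.76 in MPP4-labelled cells (SE). Over 25 alternatives the adjusted p ran from 0.000148 to 0.0692, and the highest came with background subtraction. Mt1 was chosen with earlier results of these data known, so this test may not be independent of the choice.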

How the results depend on the processing

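Subtracting background changed the most. The number of genes called fell from 9462 to 1640 in HSC, from 2988 to 1127 in MPP1, from 1735 to 864 in MPP2-labelled and from 3926 to 1375 in MPP4-labelled cells, from 1351 to 720 for the interaction, and from 5523 to 2369 and from 4655 to 2245 among WT and KO-labelled progenitors; it also ended both Mtf1 calls (log2 0.598 and 0.543) and turned Mlxip in HSC to -0.147. With a library left out, MPP2-labelled calls ran from 1091 (without WT replicate 3) to 1397, with 1133 without WT replicate 2. Values near 0 changed sign with a library left out. Mt1 in MPP4-labelled cells became 0.128 (without WT replicate 2), 0.0631 and 0.0741 (without KO-labelled replicates 2 and 3) in a range of -0.363 to 0.128, and Slc30a1 in MPP1 became 0.225 (without KO-labelled replicate 1) in a range of -1.46 to 0.225. The causes were not tested. With the replicate number as a block, counts of calls were 9306, 2960, 1681 and 3857 in HSC, MPP1, MPP2-labelled and MPP4-labelled cells, and no call of Mt1, Mtf1 or Slc30a1 changed. Mt1 did not pass the filter when only the 6 MPP1 libraries were fitted, so that alternative gave no value; in the other 12 its MPP1 call held. All 48 group means of the 6 genes moved by less than 1 SD with median-of-ratios size factors. With 3 libraries a group and fewer than 50 counts of Mt1 or Slc30a1 in each, differences of the size seen in Slc30a1 could not be told from 0 at this depth.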
